A study of Mus musculus with 12 samples.

Results

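Small intestinal organoids from Young mice were compared between passage 4 and passage 3. The comparison takes the 6 Young samples of the 12 in the study, chosen by the age and passage in the labels. At passage 3 there are 3 libraries (replicates 1 to 3) and at passage 4 another 3 (replicates 4 to 6). The mice were of the C57BL/6JRj strain and 2 to 3 months old. All cultures were untreated, were split weekly and were grown for 4 to 5 weeks, and no genetic change is named in the labels. The other 6 samples are organoids of Aged mice (20 to 22 months) at the same passages, again 3 libraries each, and serve here as the comparison for the Young difference. The measurement was bulk sequencing of poly(A) RNA. Whether the replicates are separate mice is not stated. The p-values therefore describe the variation among these libraries, part of which may be technical.

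An intestinal organoid is a budding epithelial culture kept in a basement membrane gel. Lgr5-positive stem cells lie in crypt-like buds between Paneth cells, which supply Wnt3, Notch ligands and antimicrobial peptides, and their progeny become absorptive enterocytes or secretory goblet, enteroendocrine and tuft cells. Weekly splitting breaks the organoids and each fragment regrows, so stem cell, regeneration and differentiation programmes run side by side in a culture.

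Total counts lay between 38849057 and 46598936 per Young library. Epithelial markers were at similar levels in all 6 libraries, with Epcam between 1231 and 1407 CPM (counts scaled to a common total of 1e+06 with TMM factors) and the intestinal factor Cdx2 between 251 and 296 CPM. Levels of markers of other cell types differed by list. The T cell marker Cd4 and the fibroblast marker Col3a1 had 0 counts in every library, and the leukocyte gene Ptprc reached 0.0517 CPM at most. The 15 fibroblast and smooth muscle genes summed to between 3.42 and 4.38 CPM at passage 3 and to between 3.95 and 5.13 CPM at passage 4, and 6 of them were at 0 throughout. The 21 immune genes summed to between 7.49 and 19.3 CPM at passage 3 and to between 7.22 and 8.15 CPM at passage 4, and 6 of them were at 0 throughout; Itgam, an integrin gene of myeloid cells, reached 14.9 CPM. The 15 genes of endothelium, neurons and glia summed to between 17.7 and 22.7 CPM at passage 3 and to between 21.2 and 28.0 CPM at passage 4, most of it from the receptor kinase gene Ret (12.3 to 20.9 CPM), and 3 of them were at 0 throughout. The 19 genes of pancreatic and gastric epithelium summed to between 215 and 301 CPM at passage 3 and to between 104 and 125 CPM at passage 4, and 10 of them were at 0 throughout. Their highest members were the chymotrypsinogen gene Ctrb1 (up to 276 CPM), which fell, and Pdx1, a transcription factor gene that duodenal epithelium also expresses. Pdx1 went against the sum, with 14.5, 14.5 and 20.9 CPM at passage 3 and 27.8, 33.0 and 45.9 CPM at passage 4. Gkn3 was also higher in each passage 4 library, and Cela1 overlapped. Neither rise passed edgeR's quasi-likelihood test (adjusted p = 0.0559 for Pdx1 and 0.0642 for Gkn3). The part of any of these genes in the results below was not tested. Passage goes with a code in the library names. The Young passage 3 libraries share 1 code, replicates 4 and 5 share another, and replicate 6 has a different one. The Aged libraries carry the same codes. What a code means is not stated. Passage and code cannot be told apart. On the first principal component (45.1% of the variance) passage 3 lay between -34.3 and -7.42 and passage 4 between 9.61 and 27.5. Replicates 3 and 6 stood apart from the rest on the second (21.0%), at -19.0 and -19.8.

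Passage 4 organoids had higher levels of Rgcc, Wnt3, Neurog3 and the stem cell genes Lgr5, Cdk6 and Lrig1, and lower levels of Col4a1, Clu, Anxa1, the tuft cell kinase gene Dclk1, several nutrient transporters and the mitochondrially encoded genes. Of 14918 genes that passed the filter on low counts and were tested, 598 were called (4.01%) at an adjusted p under 0.05 in edgeR's quasi-likelihood test. Of these, 239 were higher at passage 4 (1.60%) and 359 were lower (2.41%). A change of at least 1 on the log2 scale was seen in 113 called genes, 41 of them higher and 72 lower. The 3 libraries of each passage did not overlap in 4386 of the 14918 tested genes, and all 598 called genes are among these. Where a called gene is said below to have groups apart, this is therefore no further support. The median log2 fold change over all tested genes was 0.002. These values over all genes (1.60% higher, 2.41% lower) are the background for the counts of each list below.

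The number called depended on single libraries. It was 3 without replicate 1, 6 without replicate 4, 48 without replicate 5, 335 without replicate 3, 469 without replicate 2 and 1201 without replicate 6. Without replicates 3 and 6 together it was 1864. The signs of the 598 were fixed by their choice, since their groups do not overlap. Of the named genes, Rgcc and Slc34a2 were called whichever library was left out. Col4a1 lost its call only without replicate 4 (adjusted p = 0.0631). Every other gene named here lost its call without replicate 1, and all of them but Mme and Aoc1 lost it without replicate 4. Other settings ended further calls. With no filter on low counts these were Clu, S100a6, Reg3a, Ano1, Kcnn4, Nqo1, Ces2a, Slc2a2, Miat, Neurog3 and Hnf4g (adjusted p from 0.0651 for Clu to 0.128 for Hnf4g). In the fit of all 12 libraries they were Ifi27l2b, Slc7a7, Cdk6, Gstm1, Zfp704, Slc2a2, Gapdh, Jag2 and Gsta1 (adjusted p from 0.0563 for Ifi27l2b to 0.451 for Gsta1). Nkx2-2, Dll4 and Zfp704 missed the threshold narrowly under a stricter filter (0.0507 to 0.0513), Hnf4g with other size factors (0.0518) and Slc2a2 without replicates 3 and 6 (0.0639).

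**Figure D1:**
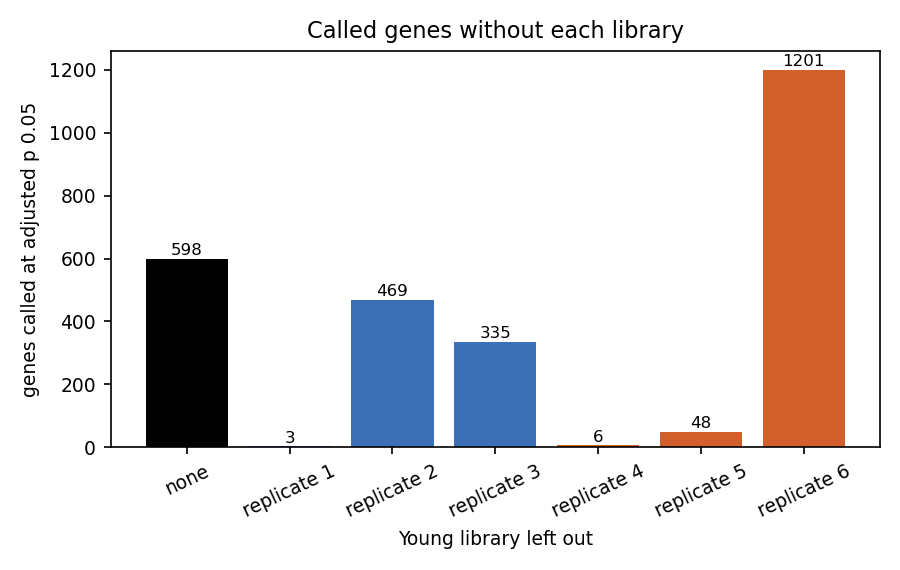
Bars give the number of genes called between passage 4 and passage 3 when the Young library on the horizontal axis is left out; the black bar is the fit with all 6 libraries. The count falls to 3 without replicate 1 and to 6 without replicate 4, and rises to 1201 without replicate 6.

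Rgcc, a regulator of the cell cycle, had the smallest p-value of all tested genes. It lies on chromosome 14 (79288756 to 79301645, minus strand, GRCm38). Its passage 3 libraries held 9.39, 8.91 and 9.78 CPM and its passage 4 libraries 32.2, 32.7 and 26.1 CPM. The groups were far apart, with a log2 fold change of 1.70 ± 0.10 (SE, n = 3 against 3, adjusted p = 0.00108). The phosphate transporter gene Slc34a2 was the mirror image in its tightness. Its libraries held 4.15, 4.03 and 4.23 CPM at passage 3 and 1.08, 1.02 and 1.08 CPM at passage 4 (log2 fold change -1.97 ± 0.15, adjusted p = 0.00399).

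Among the 24 stem cell genes listed, 23 passed the filter on low counts. Of these, 3 were called higher and 0 lower, against 1.60% and 2.41% over all genes. The median log2 fold change of the 23 was 0.51, against 0.002 over all genes. Lgr5, the R-spondin receptor that defines crypt stem cells (chromosome 10, 115450311 to 115587780), held 237, 306 and 257 CPM at passage 3 and 414, 398 and 343 CPM at passage 4. All passage 4 libraries were above all passage 3 libraries, and the log2 fold change was 0.53 ± 0.11 (adjusted p = 0.0387). Cdk6, a cyclin D-dependent kinase, rose from 106, 118 and 111 CPM to 164, 178 and 135 CPM (0.51 ± 0.10, adjusted p = 0.0351). Lrig1, a feedback inhibitor of ErbB receptors, rose by the smaller log2 difference of 0.29 ± 0.07 (adjusted p = 0.0467). Larger differences in this list, with libraries of a passage spread more widely, missed the threshold. Olfm4, a secreted glycoprotein of crypt-base stem cells, held 54.6, 111 and 17.6 CPM at passage 3 and 801, 938 and 176 CPM at passage 4 (3.39 ± 0.96, adjusted p = 0.121). The lowest Olfm4 value was that of replicate 3 at passage 3 and of replicate 6 at passage 4. Ascl2, a Wnt-dependent stem cell transcription factor, had a log2 difference of 1.26 ± 0.31 (adjusted p = 0.0671). Without replicates 3 and 6, 16 stem cell genes were called higher, without replicate 6 it was 10, without replicate 2 it was 2, and without replicate 1, 3, 4 or 5 it was 0. RNA from bulk cultures does not tell a larger share of a cell type from more RNA per cell of that type, nor fewer cells from less RNA per cell.

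No Paneth cell gene passed the test in the fit of the 6 Young libraries. Of 22 listed, 15 passed the filter, 0 were called in either direction, and the median log2 difference was 0.99. Lyz1, the Paneth cell lysozyme, held 161, 170.4 and 169.9 CPM at passage 3 and 425, 562 and 195 CPM at passage 4 (1.24 ± 0.38, adjusted p = 0.130). All 3 passage 4 libraries were higher, but replicate 6 only narrowly. Mmp7, the protease that matures defensins in mice, overlapped between passages, with 5.30 CPM in replicate 2 and 4.45 CPM in replicate 6. Without replicate 6 the list had 5 called members, all higher, without replicates 3 and 6 it had 6, and without replicate 2 it had 1. Defensin genes have near-identical copies whose reads the counting could split, so their values are uncertain.

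**Figure D2:**
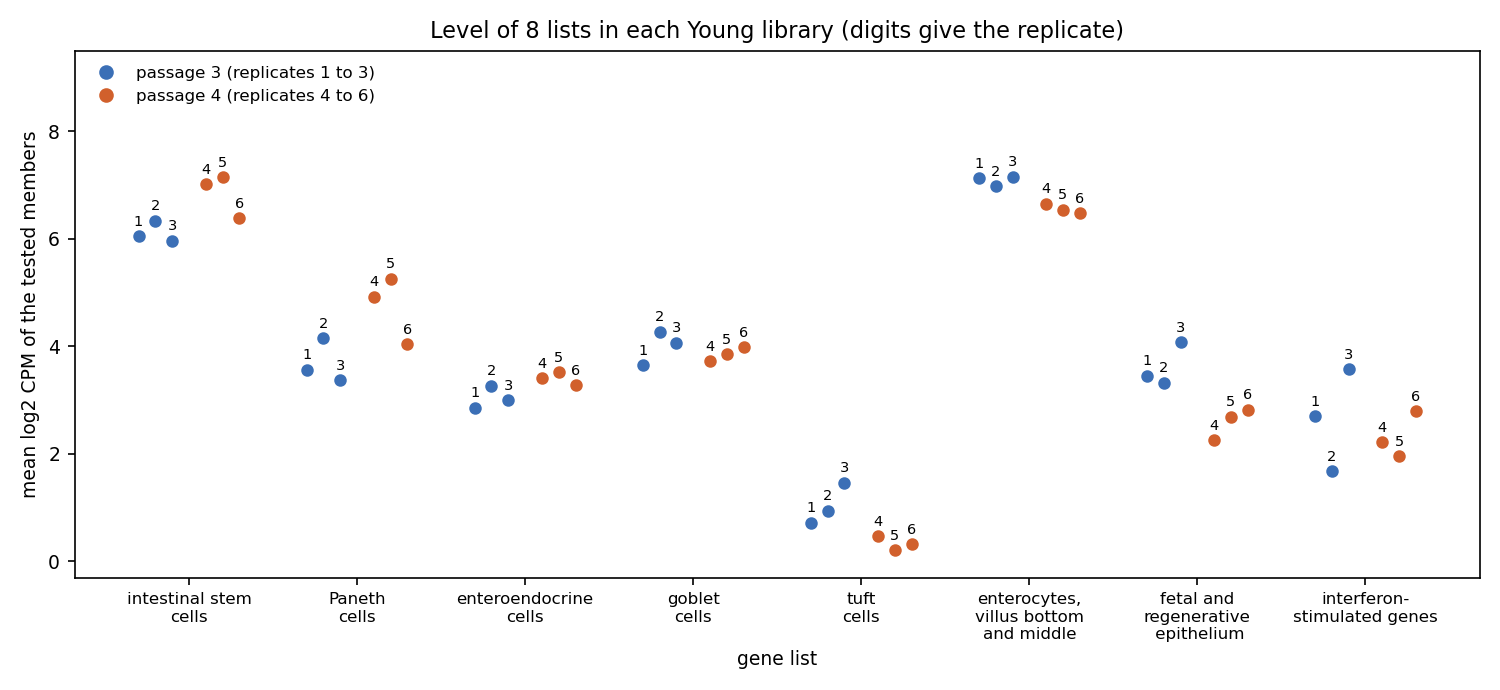
Each point is the mean log2 CPM of the tested members of a list (horizontal axis) in 1 Young library, with the replicate number above it; blue is passage 3 and orange passage 4. Stem cell genes lie between 5.96 and 6.34 at passage 3 and between 6.39 and 7.14 at passage 4, the enterocyte list is lower in every passage 4 library, and the interferon-stimulated genes overlap, with replicate 3 the highest at 3.57.

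Wnt signalling maintains the crypt: a ligand binds a Frizzled receptor, and beta-catenin with TCF/LEF factors then switches on target genes. Of 19 tested Wnt ligands, receptors and regulators, 2 were higher and 1 was lower (median 0.10). Over all genes 1.60% were higher and 2.41% lower. The ligand gene Wnt3, expressed by Paneth cells in the mouse crypt (chromosome 11, 103774150 to 103817957), held 3.13, 3.72 and 2.44 CPM at passage 3 and 7.26, 8.22 and 5.05 CPM at passage 4. The groups did not overlap and the log2 fold change was 1.14 ± 0.22 (adjusted p = 0.0319). The receptor gene Fzd1 rose from 3.68, 5.32 and 4.77 CPM to 9.27, 9.40 and 8.58 CPM (0.99 ± 0.15, adjusted p = 0.0197). Fzd5, a receptor gene needed for Paneth cell maturation, moved the other way. It held 219, 229 and 230.0 CPM at passage 3 and 179.5, 171 and 180.5 CPM at passage 4 (-0.35 ± 0.05, adjusted p = 0.0195).

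Of 23 tested Wnt target genes and feedback inhibitors, only Lgr5 was called, against 4.01% over all genes, and the median was 0.42. Sp5, a transcription factor gene induced by Wnt, held 1.61, 2.20 and 1.37 CPM at passage 3 and 8.22, 10.6 and 3.44 CPM at passage 4, which just missed the threshold (2.11 ± 0.43, adjusted p = 0.0511). Axin2, a feedback inhibitor, had a difference of 1.26 ± 0.32 (adjusted p = 0.0891). The cyclin gene Ccnd1, on the same list, had a difference of -0.92 (adjusted p = 0.0693). Without replicate 6, 9 targets were called higher and 1 lower, and without replicates 3 and 6 the counts were 10 and 1. Without replicate 2 there were 2, both higher, and without replicate 1, 3, 4 or 5 there were 0. In the ligand and receptor list 4 were called higher without replicate 6, and 0 in either direction without replicate 1, 4 or 5. Without replicate 3 it was 1 higher and 1 lower.

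Notch signalling between neighbouring cells sets the choice between absorptive and secretory fates. Of 22 tested Notch genes, 2 were higher and 2 lower (median 0.08), against 1.60% and 2.41% over all genes. Hes6, a basic helix-loop-helix gene that opposes Hes1, rose from 85.6, 92.2 and 90.3 CPM to 139.7, 136 and 121 CPM (0.57 ± 0.06, adjusted p = 0.00932). The ligand gene Dll4 rose from 10.6, 13.4 and 11.6 CPM to 20.6, 23.4 and 15.2 CPM (0.74 ± 0.16, adjusted p = 0.0492). The Jagged ligand genes fell, Jag1 by 0.44 ± 0.08 (adjusted p = 0.0319) and Jag2 by 0.31 ± 0.06 (adjusted p = 0.0332) on the log2 scale; for Jag2 the adjusted p was 0.188 in the 12-library fit. The list had 0 calls without replicate 1 or 4 and 1, higher, without replicate 3 or 5. Without replicate 2 it had 1 in each direction, and without replicate 6 it had 5 higher and 3 lower.

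In the BMP and TGF-beta pathway, which restrains proliferation along the crypt-villus axis, 2 of 26 tested genes were higher and 1 was lower. The list's median was 0.02, and over all genes 1.60% were higher and 2.41% lower. The ligand gene Bmp7 held 33.8, 39.8 and 36.6 CPM at passage 3 and 56.5, 63.2 and 50.3 CPM at passage 4 (0.63 ± 0.09, adjusted p = 0.0197). Id2, a BMP-induced inhibitor of helix-loop-helix factors, rose by a log2 difference of 0.57 ± 0.11 (adjusted p = 0.0319). Acvr2a, a type II receptor gene, fell by 0.29 ± 0.07 on that scale (adjusted p = 0.0492). Smo, the signal transducer of the Hedgehog pathway, was called outside these lists and is named after its values were seen. It rose from 12.8, 17.5 and 13.3 CPM to 32.0, 34.3 and 25.7 CPM (1.08 ± 0.15, adjusted p = 0.0197). Without replicate 1, 4 or 5 the BMP list had 0 calls, and without replicate 2 it had 1. The values without replicate 3 were 2 higher and 0 lower.

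Endocrine and goblet cells are secretory lineages. Of 30 tested enteroendocrine genes 2 were called, both higher (median 0.31), against 1.60% higher over all genes. Neurog3, the transcription factor gene of endocrine progenitors, rose from 6.62, 7.47 and 10.5 CPM to 21.8, 24.7 and 14.1 CPM (1.30 ± 0.26, adjusted p = 0.0475). Nkx2-2, which acts downstream of it, rose from 3.42, 4.11 and 4.52 CPM to 7.56, 8.82 and 5.48 CPM (0.86 ± 0.19, adjusted p = 0.0477). Chga, a granule protein gene of mature endocrine cells, overlapped between passages at 77.2 to 162 CPM and 127 to 143 CPM (0.25 ± 0.27, adjusted p = 0.620). Of 23 tested goblet cell genes 1 was called, against 4.01% over all genes. This was the chemokine gene Ccl6, which held 1.59, 1.89 and 1.66 CPM at passage 3 and 0.726, 0.583 and 0.646 CPM at passage 4 (-1.39 ± 0.20, adjusted p = 0.0195). Muc2, the gel-forming mucin gene of goblet cells, ran from 93.5 to 166 CPM at passage 3 and from 75.2 to 100.4 CPM at passage 4 (-0.54 ± 0.23, adjusted p = 0.228). The endocrine calls were 0 without replicate 1, 4 or 5, 1 without replicate 3, 4 without replicate 6 and 7 without replicates 3 and 6. The goblet call was absent without replicate 1, 4 or 5.

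Tuft cells are rare chemosensory cells. Of 25 tuft genes listed, 21 passed the filter, 4 were lower and 1 was higher. Over all genes 2.41% were lower and 1.60% higher. A negative difference was seen in 19 of the 21 (median -0.79). Dclk1, the doublecortin-like kinase gene that marks these cells (chromosome 3, 55242364 to 55539068), held 3.15, 4.31 and 5.23 CPM at passage 3 and 1.80, 1.77 and 1.46 CPM at passage 4. Each passage 4 library was below each passage 3 library (-1.33 ± 0.21, adjusted p = 0.0233). Rgs13, a regulator of G-protein signalling, held 1.11, 1.42 and 1.66 CPM against 0.538, 0.479 and 0.550 CPM (-1.42 ± 0.24, adjusted p = 0.0248). Spib, an Ets factor gene, fell by 1.39 ± 0.25 on the log2 scale (adjusted p = 0.0277). Plcb2, the phospholipase gene of taste signalling, had a difference of -2.24 ± 0.46 (adjusted p = 0.0404), but from values that reach 1.69 CPM at most, in replicate 3. Pou2f3, the master transcription factor gene of tuft cells, did not pass the test. It overlapped between passages, at 2.07 to 3.18 CPM and 2.39 to 2.98 CPM (0.11 ± 0.20, adjusted p = 0.767). The member that rose was Cd24a (0.50 ± 0.09, adjusted p = 0.0273), a surface glycoprotein gene also used to sort Paneth and endocrine cells. Replicate 3 had the highest mean log2 CPM of the list, at 1.46. Without it the median was -0.37 and 3 genes were lower. Without replicate 1, 4 or 5 the list had 0 calls.

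Absorptive enterocytes take up sugars, amino acids and lipids. Of 29 tested genes of villus bottom and middle enterocytes, 9 were lower and 0 higher, against 2.41% lower over all genes. A negative difference was seen in 26 of the 29 (median -0.53). The 9 include the secreted lectin genes Reg3a and Reg3g, which are also counted among antimicrobial proteins below. Fabp2, the intestinal fatty acid-binding protein gene (chromosome 3, 122895072 to 122899506), held 549.7, 475 and 486 CPM at passage 3 and 383, 352 and 367 CPM at passage 4 (-0.46 ± 0.07, adjusted p = 0.0215). Slc2a2, the glucose and fructose transporter gene of the basolateral membrane, held 103, 81.0 and 110.3 CPM against 69.9, 55.9 and 59.2 CPM (-0.67 ± 0.13, adjusted p = 0.0430). In both genes the groups were apart. The neutral amino acid transporter gene Slc6a19 fell from 83.0, 73.3 and 62.0 CPM to 53, 47.4 and 44.2 CPM (-0.59 ± 0.11, adjusted p = 0.0351). Slc7a7, Slc7a8 and Slc7a9, light chains of heteromeric amino acid transporters, fell by 0.26, 0.50 and 0.53 on the log2 scale. Enpep, the gene of the brush border aminopeptidase A, fell from 46.5, 39.8 and 54.1 CPM to 29.8, 26.2 and 24.0 CPM (-0.81 ± 0.12, adjusted p = 0.0233). Fabp1, the liver-type binding protein gene, did not pass (adjusted p = 0.188). It held 1362, 955 and 2618 CPM at passage 3, with replicate 3 far above the others, and 934, 639 and 811 CPM at passage 4. The 9 calls became 0 without replicate 1, 4 or 5, 6 without replicate 3 and 11 without replicate 6, and the list's median stayed between -0.54 and -0.48 in all of these fits. The 20 tested genes of the villus tip gave 0 calls and a median of -0.13, and 8 of them had a positive difference.

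Mme and Aoc1, enzyme genes outside these lists, are named after their values were seen. Mme, the gene of the membrane endopeptidase neprilysin, held 123, 103 and 125 CPM at passage 3 and 56.9, 54.5 and 44.8 CPM at passage 4 (-1.17 ± 0.11, adjusted p = 0.00754). Aoc1, the diamine oxidase gene, held 163, 141 and 181 CPM against 78.5, 71.1 and 72.5 CPM (-1.13 ± 0.09, adjusted p = 0.00582). Among 14 tested regional genes of jejunum and ileum, 2 were lower, and the list median was -0.40. Over all genes 2.41% were lower and 1.60% higher. The carboxylesterase gene Ces1f fell by 1.08 ± 0.13 on the log2 scale (adjusted p = 0.0173). The list had 0 calls without replicate 1, 4 or 5 and 1 without replicate 3. Of 34 tested epithelial transcription factor genes, 2 were higher, among them Zfp704 (0.33 ± 0.07, adjusted p = 0.0483), and Sox21 and Hnf4g were lower. Hnf4g, a regulator of the enterocyte programme, held 102, 85.5 and 113 CPM at passage 3 and 65.9, 52.4 and 70.5 CPM at passage 4 (-0.67 ± 0.14, adjusted p = 0.0499). The list had 0 calls without replicate 1, 3, 4 or 5 and 3, all lower, without replicate 2.

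**Figure D3:**
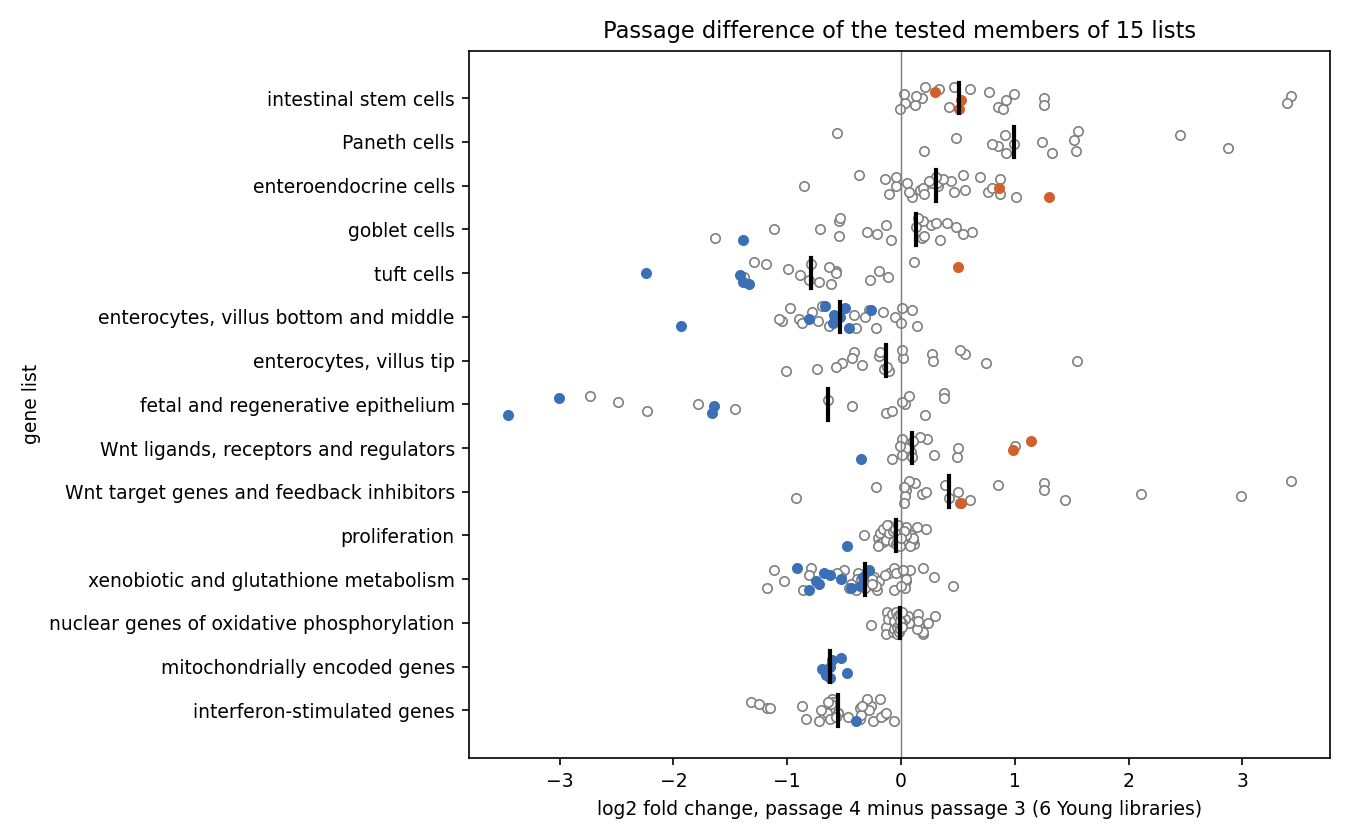
Each point is the log2 fold change (passage 4 minus passage 3, horizontal axis) of a tested gene of the list on the vertical axis; filled orange points were called higher, filled blue points lower, open points not called, and the black bar is the list's median. The 9 called enterocyte genes and the 7 mitochondrially encoded genes all lie below 0, while 0 of 15 Paneth cell genes is filled although their median is 0.99.

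The secreted lectins Reg3a and Reg3g, which bind Gram-positive bacteria, are neighbours on chromosome 6 and fell together. Reg3a held 34.8, 23.3 and 34.6 CPM at passage 3 and 10.5, 8.45 and 5.33 CPM at passage 4 (-1.93 ± 0.28, adjusted p = 0.0277). Reg3g held 15.9, 19.2 and 16.3 CPM against 12.6, 11.3 and 9.95 CPM (-0.60 ± 0.12, adjusted p = 0.0319). With Wfdc2, a protease inhibitor gene that reached at most 1.3 CPM, they were the 3 genes called among 17 tested mucins and secreted antimicrobial proteins. Over all genes 2.41% were lower. Reg3a and Reg3g are also among the called genes of the enterocyte list. Among the 17 genes there were 0 calls without replicate 1, 4 or 5, 1 without replicate 3 and 2 without replicate 2. The 250 bases before the start of Reg3a, Reg3g and Fabp2 are shown because these genes were called, and their windows hold a TCF/LEF motif (CTTTGAT or CTTTGAA, searched on both strands), given in capitals. The sequences are from RefSeq promoters on GRCm38.p6, 5′ to 3′ on the gene's strand, at chr6:78380459-78380708 (plus strand), chr6:78468875-78469124 (minus strand) and chr3:122894822-122895071 (plus strand).
Reg3a: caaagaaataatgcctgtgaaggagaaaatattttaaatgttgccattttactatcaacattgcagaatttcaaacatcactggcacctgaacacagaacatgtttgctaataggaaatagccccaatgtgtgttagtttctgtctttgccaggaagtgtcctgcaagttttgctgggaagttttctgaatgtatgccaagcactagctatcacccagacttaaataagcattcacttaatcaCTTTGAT
Reg3g: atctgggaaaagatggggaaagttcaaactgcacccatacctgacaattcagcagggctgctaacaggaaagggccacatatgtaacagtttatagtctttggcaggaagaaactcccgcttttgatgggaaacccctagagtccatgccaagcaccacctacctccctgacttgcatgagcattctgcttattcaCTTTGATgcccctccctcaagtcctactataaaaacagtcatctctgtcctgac
Fabp2: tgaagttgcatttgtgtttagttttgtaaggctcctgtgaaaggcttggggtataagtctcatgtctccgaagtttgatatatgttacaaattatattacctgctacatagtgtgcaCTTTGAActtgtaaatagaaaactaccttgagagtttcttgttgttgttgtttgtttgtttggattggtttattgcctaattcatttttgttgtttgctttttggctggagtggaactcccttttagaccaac
CTTTGAT occurs in 3.21% of 32851 promoter windows of 250 bases and CTTTGAA in 4.46%, and 7.48% hold at least 1 of them. Of 14 windows of the 9 called enterocyte genes, 4 hold at least 1 motif. Of 34 windows of the tested enterocyte genes, 6 do, and the rest hold neither. The motifs share their first 6 letters, so no site is both. The windows of the called Wnt pathway genes Wnt3 and Fzd1 hold neither. A match is a description of these letters and not a bound site.

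Fetal-like genes come back on in the adult epithelium while it regenerates. Of 19 tested genes of the fetal-like and regenerative epithelium, 4 were lower, 0 were higher and 15 did not pass. The list had 6 positive differences and a median of -0.64. Over all genes 2.41% were lower. Clu, which marks revival stem cells after damage (chromosome 14, 65968483 to 65981547), held 13.8, 12.9 and 27.4 CPM at passage 3 and 2.06, 3.23 and 1.39 CPM at passage 4 (-3.01 ± 0.43, adjusted p = 0.0285). Anxa1, a calcium-dependent phospholipid-binding protein gene, fell from 3.77, 3.36 and 5.72 CPM to 0.866, 1.69 and 1.55 CPM (-1.64 ± 0.29, adjusted p = 0.0285). S100a6 fell from 14.3, 13.4 and 21.6 CPM to 3.77, 4.87 and 6.93 CPM (-1.66 ± 0.27, adjusted p = 0.0292). In all of these genes the groups were apart and replicate 3 was the highest library. Vsig1, an adhesion protein gene of stomach epithelium, was at 0.522, 0.930 and 0.856 CPM and then at 0, 0.125 and 0.0717 CPM (adjusted p = 0.0263). Ly6a, the surface antigen Sca-1, held 4.67, 3.62 and 8.14 CPM at passage 3 and 0.936, 1.94 and 1.89 CPM at passage 4, without overlap, and just missed the threshold (-1.78 ± 0.38, adjusted p = 0.0504). Without replicate 3 the list still had 4 lower genes and a median of -0.49. Without replicate 1, 4 or 5 it had 0.

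Col4a1, which encodes a chain of type IV collagen, the network of the basement membrane, showed the largest fall among named genes. It held 2.70, 1.45 and 1.54 CPM at passage 3 and 0.117, 0.187 and 0.167 CPM at passage 4 (-3.56 ± 0.36, adjusted p = 0.00754). Its partner gene Col4a2 starts 21 bases away on the opposite strand of chromosome 8, in the RefSeq promoters. Col4a2 held 2.06, 1.29 and 1.15 CPM against 0.0234, 0.479 and 0.263 CPM, a difference that did not pass (-2.52 ± 0.61, adjusted p = 0.0641). The 26 tested matrix genes had 1 other call, Plod2, a collagen lysyl hydroxylase gene that rose from 1.66, 1.94 and 1.76 CPM to 4.05, 3.47 and 5.21 CPM (1.25 ± 0.19, adjusted p = 0.0197). Their median was 0.12. Over all genes 1.60% were higher and 2.41% lower, so 1 call in each direction is near the background. Without replicate 4 the list had 0 calls and without replicate 1 only Col4a1. Without replicate 6 it had 3 higher and 1 lower, and without replicate 3 it had 2 higher and 1 lower. Col4a1, Vsig1 and Wfdc2 passed the filter on low counts through their passage 3 libraries only, so a fall was the only change they could show.

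**Figure D4:**
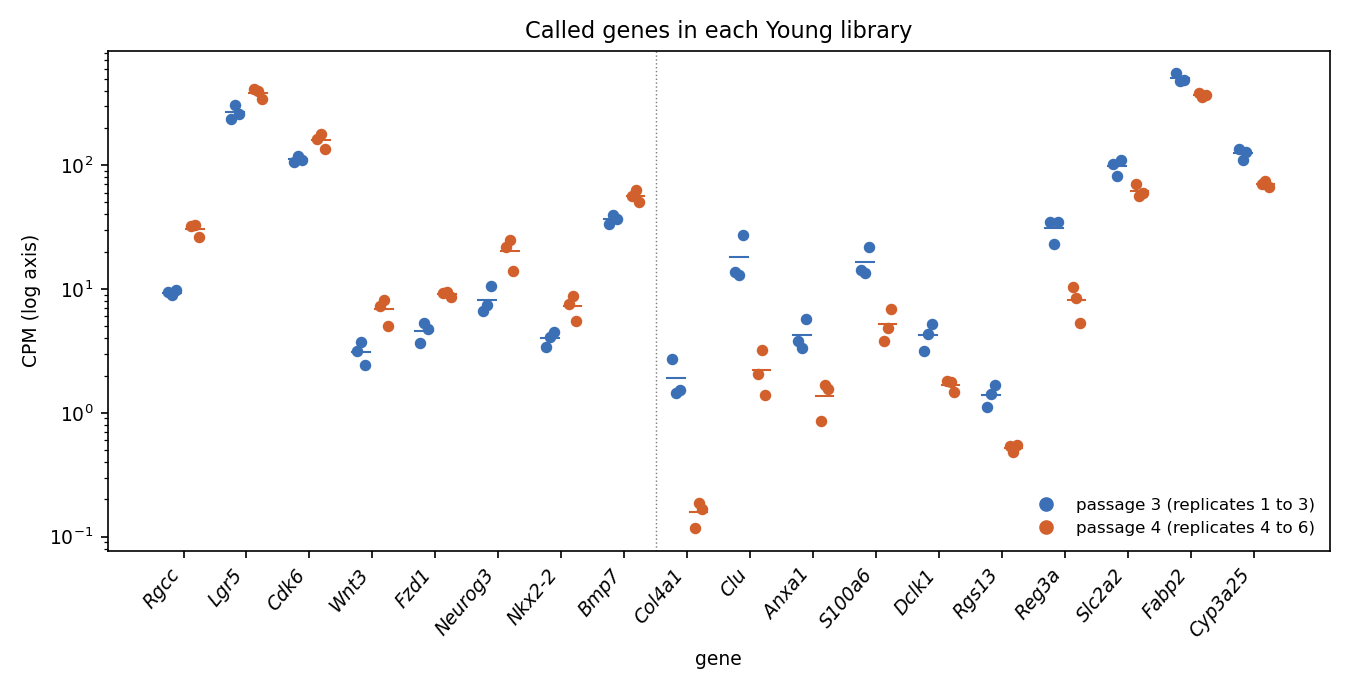
Points give the CPM (log axis) of 18 called genes in each Young library, with blue for passage 3, orange for passage 4 and a line at each group's mean; genes left of the dotted line were higher at passage 4 and those right of it lower. In every gene shown the colours separate, from Rgcc (8.91 to 9.78 against 26.1 to 32.7 CPM) to Col4a1 (1.45 to 2.70 against 0.117 to 0.187 CPM). Only called genes are drawn, and none of the 598 called genes overlaps between passages, so the separation is no further result. Col4a1 passed the filter on low counts through its passage 3 libraries only.

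The mitochondrial genome encodes subunits of the respiratory chain. All 7 tested genes of the 13 mitochondrially encoded proteins were lower (median -0.62), and the other 6 had at most 1 count in any Young library. The range of log2 fold change was narrow, from -0.69 ± 0.09 for mt-Nd5 (adjusted p = 0.0140) to -0.48 ± 0.09 for mt-Nd6 (adjusted p = 0.0317). The cytochrome oxidase gene mt-Co1 held 12389, 9413 and 11312 CPM at passage 3 and 6782, 7418 and 7264 CPM at passage 4. The mitochondrial genes that received counts took 3.67% to 4.33% of all counts at passage 3 and 2.56% to 2.94% at passage 4. Why the other 6 protein genes had almost no counts was not tested, and their RNA is not in this share. What moves the share between passages was not tested either. The 32 tested nuclear genes of oxidative phosphorylation gave 0 calls and a median of -0.01. Without replicate 1 or 4 the mitochondrial list had 0 calls, and without replicate 3 or 5 it had 4.

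Of 51 tested genes of xenobiotic and glutathione metabolism, 11 were lower and 0 higher (median -0.32). Over all genes 2.41% were lower. Cyp3a25, a cytochrome P450 gene of drug oxidation, held 136, 110.1 and 127 CPM at passage 3 and 70.9, 75.0 and 66.6 CPM at passage 4 (-0.81 ± 0.08, adjusted p = 0.00754). Ces2a, a carboxylesterase gene, held 1823, 1682 and 2179 CPM against 859, 905 and 1258 CPM (-0.91 ± 0.16, adjusted p = 0.0347). Nqo1, the quinone reductase gene controlled by Nrf2, held 62.4, 61.4 and 63.5 CPM against 35.5, 31.4 and 47.0 CPM (-0.72 ± 0.14, adjusted p = 0.0411). The glutathione transferase genes Gstm1, Gstm3, Gstm4, Gsta1 and Mgst3 were all lower, by 0.33 to 0.75 on the log2 scale, and Gst genes have close copies that may share reads. This list had 0 calls without replicate 1 or 4, 2 without replicate 5, 8 without replicate 3 and 23 without replicate 6. In fatty acid oxidation 3 of 27 tested genes were lower (among them Ehhadh and the fatty acid transporter gene Cd36) and in cholesterol synthesis and uptake 2 of 28 (Dhcr7 and the sterol exporter gene Abcg5), with medians of -0.19 and -0.12. Both had 0 calls without replicate 1, 4 or 5 and 1 without replicate 3.

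Proliferation genes gave a single call. Of 35 tested, 0 were higher and only E2f2, a cell cycle transcription factor gene, was lower (-0.48 ± 0.09, adjusted p = 0.0305). The median was -0.04. A single call in this list is near the share over all genes (2.41% lower). Mki67, the marker of cycling cells, held 405, 469 and 447 CPM at passage 3 and 376, 440.3 and 413 CPM at passage 4, with overlapping groups (-0.10 ± 0.08, adjusted p = 0.462). Of 32 tested glycolysis and hypoxia genes 22 had a positive difference and 2 were called: hexokinase 2 (Hk2) rose by a log2 difference of 0.45 ± 0.09 (adjusted p = 0.0350) and Gapdh fell by 0.35 ± 0.06 (adjusted p = 0.0242). A call in each direction is near the share over all genes (1.60% higher and 2.41% lower). In the fit of all 12 libraries 22 of the 32 were positive in Young and 12 in Aged.

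Interferon-stimulated genes overlapped between the passages, whereas antigen presentation had a few tight differences. Of 35 tested interferon-stimulated genes all had a negative difference (median -0.55), but 1 was called, Ifi27l2b (-0.39 ± 0.08, adjusted p = 0.0406). That count is near the share over all genes (2.41% lower). The mean log2 CPM of the 35 was 2.70, 1.67 and 3.57 at passage 3 and 2.22, 1.96 and 2.79 at passage 4. The groups thus overlapped and replicate 3 was highest. Without replicate 3 the median was 0.01, 18 of 35 were positive and 0 were called. Antigen presentation had 3 lower genes of 28 tested (median -0.20). These were the non-classical class I gene H2-T3 (104, 94.5 and 102 CPM against 71.5, 65.7 and 71.9 CPM, log2 fold change -0.52 ± 0.06, adjusted p = 0.00932), the peptide-trimming aminopeptidase gene Erap1 (-0.45 ± 0.07, adjusted p = 0.0197) and the transcription factor gene Irf1 (-0.46 ± 0.07, adjusted p = 0.0209). Without replicate 3 this count was again 3, without replicate 2 it was 5, without replicate 5 it was 1 and without replicate 1 or 4 it was 0. The 21 tested NF-kappaB targets and chemokines gave 0 calls (median -0.07). Beta-2 microglobulin (B2m) overlapped between passages.

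Other large changes among genes above 1 CPM on average had no list in common. Higher at passage 4 were Wfdc15b (2.24 ± 0.36, adjusted p = 0.0233), the long non-coding RNA Miat (1.77 ± 0.34, adjusted p = 0.0443), the actin regulator Evl (1.46 ± 0.24, adjusted p = 0.0277) and the hormone stanniocalcin 1, Stc1 (1.44 ± 0.21, adjusted p = 0.0195). Stc1 held 0.973, 1.01 and 0.709 CPM at passage 3 and 2.79, 2.27 and 2.25 CPM at passage 4. Lower were the chloride channel gene Ano1 (-2.33 ± 0.44, adjusted p = 0.0381), the protocadherin gene Pcdh19 (-2.06 ± 0.23, adjusted p = 0.00932), the potassium channel gene Kcnn4 (-1.49 ± 0.26, adjusted p = 0.0320) and Ctrb1. Ctrb1, a chymotrypsinogen gene of the exocrine pancreas, held 276, 258 and 179 CPM at passage 3 and 80.8, 56.8 and 67.4 CPM at passage 4 (-1.80 ± 0.21, adjusted p = 0.0197). Of other acinar genes, the elastase gene Cela1 lay between 8.41 and 13.4 CPM, and Prss2, Cpa1 and Amy2a5 had 0 counts in all 6 libraries.

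The Aged organoids gave a second passage comparison from other libraries, which bear the same confounding of passage with library code. The passage 3 libraries of both ages share a single code, and Young replicate 6 shares its code with Aged replicates 5 and 6. As to library code, the Aged comparison is therefore not independent of the Young one. In a model of all 12 libraries, 1158 of 15511 tested genes were called for passage in Young (7.47%) and 880 in Aged (5.67%). In both ages 523 were called, all with the same sign. Of the 598 genes called from the Young libraries alone, 591 had the same sign in Aged and 309 were called there. The share of the same sign over all tested genes is not given here. The difference between the ages, tested as an interaction, called 0 genes (0%), with 309 at an unadjusted p under 0.05 and a smallest adjusted p of 0.9999. DESeq2 also called 0. No gene is therefore shown to respond to passage differently in Young.

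Side by side, the stem cell list had a median of 0.51 in Young and 0.50 in Aged in this model, with 7 and 8 of 23 genes higher. The Paneth cell list had medians of 1.12 and 1.29, with 1 and 4 of 16 genes higher. Rgcc differed by 1.84 ± 0.15 in Aged, Col4a1 by -4.07 ± 0.51 and Clu by -2.60 ± 0.40. The enterocyte list had a median of -0.53 in Young and -0.16 in Aged, with 9 and 2 genes lower. The xenobiotic list had medians of -0.32 and -0.08, with 10 and 3 genes lower. Interferon-stimulated genes had medians of -0.46 and 0.05, and the negative Young median depended on replicate 3, as given above. Among the genes with the smallest interaction p were Apoc2, Fgfbp3, Pcdh19 and Btaf1. For Apoc2, an apolipoprotein gene, the passage difference was -0.10 ± 0.11 in Young and 0.56 ± 0.11 in Aged (interaction adjusted p = 0.9999).

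**Figure D5:**
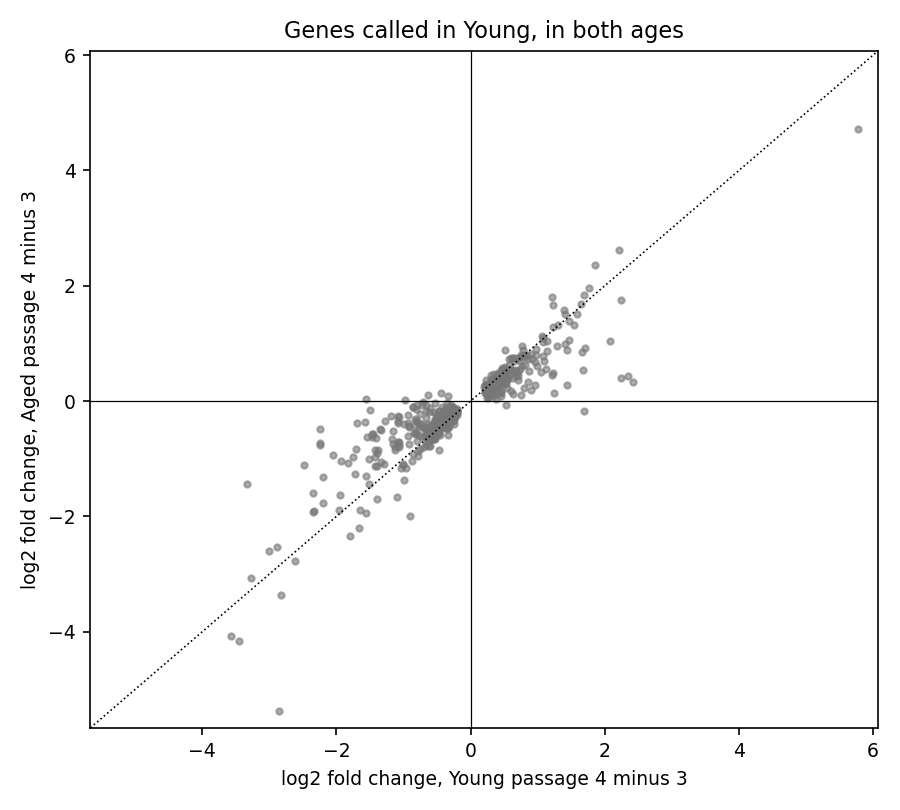
Each point is 1 of the 598 genes called in Young, with its log2 fold change (passage 4 minus passage 3) in the 6 Young libraries on the horizontal axis and in Aged, from the 12-library model, on the vertical axis; the dotted line marks equality. In 591 of them the sign is the same, and the genes were chosen on the Young axis. The rightmost point is Slc14a1, a urea transporter gene at 0, 0.0517 and 0 CPM in the passage 3 libraries.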

How the data were processed

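Poly(A) RNA of 12 organoid libraries was measured and the 6 Young libraries were analysed here. The authors deposited a single table of unnormalized gene-level read counts with 46078 genes, per the file headers from STAR alignments. Per the submitters' processing notes the tools include cutadapt 2.5, Trim Galore 0.6.4, STAR, SAMtools 1.9 and featureCounts 1.6.4 on GRCm38. Strand setting, annotation release and the handling of multi-mapping reads: not given in the sources used here. Near-identical, overlapping and antisense genes are therefore uncertain. The molecule label reads genomic DNA, whereas the extraction protocol describes RNA.

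Counts were fitted with edgeR 4.0.16 in R 4.3.3 (filterByExpr with a minimum count of 10 and a minimum total of 15, TMM factors, robust quasi-likelihood test, passage as the only term). P-values were adjusted over all tested genes (Benjamini-Hochberg) and called under 0.05. Fold changes are given ± SE, derived from the F statistic. CPM uses TMM-scaled library sizes, and mean log2 CPM a prior count of 2. A model of 4 group means over 12 libraries gave the Aged passage difference and the interaction. Alternatives were DESeq2 1.42.0, other size factors and filters, and fits without single libraries. No pair of libraries of a group agreed within counting noise, so none was merged. The procedure was also run on simulated counts, whose outcome is not given here. Those counts held no differences by library code. The run therefore cannot speak to the dependence on single libraries.

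The 42 gene lists and the named genes were chosen with earlier results of these data known. Named genes are, for each direction, the 12 called genes of largest fold change that averaged at least 1 CPM and did not overlap between groups, up to 4 called genes per list and direction, a fixed set of markers and the 5 genes with the smallest interaction p. A few genes that this rule takes are left out of the text. Positions are from GENCODE M21 on GRCm38. Promoter sequences are from a RefSeq table on GRCm38.p6, in which Lgr5 was not matched.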

Additional observations from a re-analysis of the deposited data

How the results depend on the processing

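Depth was similar across libraries (38849057 to 46598936 counts), and 3 counts correspond to 0.0644 to 0.0772 CPM of these totals, before TMM scaling. The CPM printed elsewhere are TMM-scaled, with factors of 0.967 to 1.03, so the level there differs slightly. Values near that level cover counting error only. The main limit is 3 libraries a group. With DESeq2, 1500 genes were called (648 higher, 852 lower), without a filter on low counts 1165 (506 and 659) and in the 12-library model 1158 (584 and 574). With replicates 3 and 6 left out, a choice made after seeing the data, 1864 were called (901 and 963). Leaving out single Young libraries gave 3 to 1201 calls, 1 to 560 higher and 2 to 641 lower. Aged calls were 1632 with DESeq2 and 99 to 1567 without single libraries. The interaction called 0 genes in each of these fits. No paired analysis was possible for the Young passage difference because its groups share no replicate number. With the replicate number as a replicate block, the interaction again called 0 genes (484 at an unadjusted p under 0.05, smallest adjusted p = 0.311).

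Signs reversed for 5 named genes, none of them called, when single Young libraries were left out. Their log2 differences ran from -0.00643 to 0.364 for Pdgfrb, -0.0432 to 0.197 for Dll1, -0.255 to 0.0409 for Cdkn1a, -0.0428 to 0.149 for Tagln and -0.675 to 0.882 for Isg15. For Isg15 the difference was 0.334 without replicates 3 and 6. The cause was not tested, beyond the smaller number of libraries in these fits.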

Other observations

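Ribosomal protein genes formed a group that no list above holds, and were grouped by name after their values were seen. Of 77 tested cytosolic ribosomal protein genes, 15 were higher and 0 lower at passage 4, against 1.60% and 2.41% over all genes. A positive difference was seen in 67 of the 77, with a median of 0.18. Their summed level was 25155 to 26052 CPM at passage 3 and 27789 to 29862 CPM at passage 4, without overlap. Mitochondrial ribosomal protein genes had 3 higher and 0 lower of 76 (median 0.08). Of 4 equal groups of all tested genes by exon length, the shortest had 2.23% of genes higher and 1.96% lower (median log2 difference 0.07), and the longest 1.05% and 2.88% (median -0.03). By GC content of the longest transcript, 0.81% were higher and 3.04% lower in the lowest of 4 groups, and 2.58% and 1.64% in the highest. The part of length and GC content in the ribosomal protein difference was not tested.

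Solute carriers, the transport proteins of nutrients, ions and metabolites, had more lower genes than any of the other 13 families grouped by name. This is a count from a large family, and shares were larger in several smaller families. Of 254 tested, 29 were lower and 2 higher (median -0.12), against 2.41% lower and 1.60% higher over all genes. Of 45 cytochrome P450 genes 5 were lower, of 9 glucuronosyltransferase genes 4 and of 13 carboxylesterase genes 2, with 0 higher in each family. Their medians were -0.19, -0.39 and -0.68. All 13 carboxylesterase genes had a negative difference, and their summed level was 2968 to 4105 CPM at passage 3 and 1747 to 2419 CPM at passage 4. Glutathione transferases, with 4 of 19 lower, had a median of -0.22 in Young and 0.06 in Aged. That difference between the ages was not called for any single gene.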
